A study of Mus musculus with 12 samples.

Results

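The canonical Wnt pathway works through beta-catenin. Without a Wnt signal, a destruction complex built on Axin and Apc holds beta-catenin for phosphorylation by Gsk3b and for degradation; when a Wnt ligand binds Frizzled and Lrp receptors, beta-catenin escapes, enters the nucleus and joins DNA-bound TCF/LEF factors at target genes. Primordial germ cells, the embryonic precursors of sperm and eggs, receive this signal when they are specified, and Ror2, a receptor for Wnt5a outside the beta-catenin route, is known for its part in their migration to the gonad.

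The 10 components described here were chosen by name from this pathway. They are beta-catenin (Ctnnb1), the scaffolds and kinase of its destruction complex (Axin1, Axin2, Apc and Gsk3b), the 4 TCF/LEF factors (Lef1, Tcf7, Tcf7l1 and Tcf7l2) and the receptor Ror2. All 10 were found among the 22552 rows of each stage table and the 16394 rows of the knockout table.

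RNA-seq was made from primordial germ cells of C57BL/6 mouse embryos, with 12 libraries in all. For the stages, 2 libraries came from E9.5, 2 from E11.5 and 3 from male embryos at E13.5 (E13.5m), each from 400 to 5000 cells. For the knockout, 2 libraries came from Tet1 -/- germ cells at E13.5 (Tet1-KO) and 3 from wild-type germ cells at E13.5, each from 500 to 2000 cells; Tet1 is an enzyme that oxidises methylated cytosine in DNA. The labels give no sex for the knockout and wild-type libraries, do not describe the Tet1 allele further, and do not say whether libraries came from separate embryos. One stage table also holds a column named E13.5f, tied by the labels to no library.

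Each table gives 1 pooled level per group in FPKM (fragments per kilobase of transcript scaled to the mapped total, a level per length), with no value per library. A spread between libraries could therefore not be given; errors below are the standard error (SE) of a log2 ratio implied by the authors' test, and intervals are 95% intervals from it. A gene is called when the authors' Cuffdiff q-value or false discovery rate (FDR) over the whole table is under 0.05. E11.5 was scaled anew in each of the 3 stage tables, by a fixed factor between them, so levels across the 4 stage columns are given on the scale of the E13.5f table, while ratios and tests stay within 1 table. The wild-type column followed the E13.5f column at a ratio of about 1.04 over 10996 genes (5th to 95th percentile 0.973 to 1.06), so the E13.5f and knockout comparisons are not independent of each other.

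The labelled cell type and genotype were read from marker genes. The 8 germ cell markers summed to 2182, 2624, 4899 and 3449 FPKM at E9.5, E11.5, E13.5m and E13.5f, and to 2538 FPKM in Tet1-KO cells and 3614 FPKM in wild-type cells. Their median level was 204 FPKM in Tet1-KO cells and 202 FPKM in wild-type cells. The 8 germ cell markers did not all move alike over the stages. Dazl and Ddx4 were called higher at E11.5 than at E9.5. Dazl was also called higher in both E13.5 columns than at E11.5, while Kit and Tfap2c were called lower in E13.5m. Tet1 itself stood at 0.218 FPKM in Tet1-KO cells and 6.36 FPKM in wild-type cells, a log2 ratio of -4.87 ± 0.67 (SE; FDR 1.55e-10 in the authors' deposited table, Cuffdiff). The 8 mesenchyme markers, 4 of them listed in the knockout table, summed to no more than 2.28 FPKM in any column. The 8 blood and macrophage markers summed to 21.1 FPKM at E11.5 and to 1743 FPKM at E9.5, and 5 of the 6 tested fell at E11.5. The 12 gonad soma markers summed to 1.71, 3.58, 21.8 and 6.05 FPKM at E9.5, E11.5, E13.5m and E13.5f, and the 10 listed in the knockout table summed to 11.5 FPKM in Tet1-KO cells and 5.97 FPKM in wild-type cells. Wt1, Nr5a1 and Gata4 were at no more than 1.36 FPKM in any column, whereas Rspo1, Cyp11a1, Amh and Dhh had 7.21, 5.57, 3.92 and 1.28 FPKM in E13.5m, against 0.460, 0.970, 0.126 and 0 FPKM in E11.5 on the common scale. In bulk RNA of this kind, fewer cells of a type and less RNA per cell cannot be told apart.

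No component was called in any table. At E11.5 against E9.5, 0 of 10 passed (1 at an unadjusted p under 0.05), where 5.63% of all genes tested passed and 19.8% had an unadjusted p under 0.05. At E13.5f against E11.5 it was 0 of 8 with a completed test (2 unadjusted), where 12.0% passed over the table and 26.5% had an unadjusted p under 0.05. At E13.5m against E11.5 it was also 0 of 8 (3 unadjusted), against 4.88% and 17.2% over the table. In Tet1-KO against wild-type cells it was 0 of 10 (1 unadjusted), against 6.16% and 21.4%. The authors' test was not completed for Axin1 and Tcf7l1 in either E13.5 stage table. A gene without a call may still differ. Where an interval is given below, it states how large a difference that test leaves possible, but not every component and comparison has one.

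**Figure D1:**
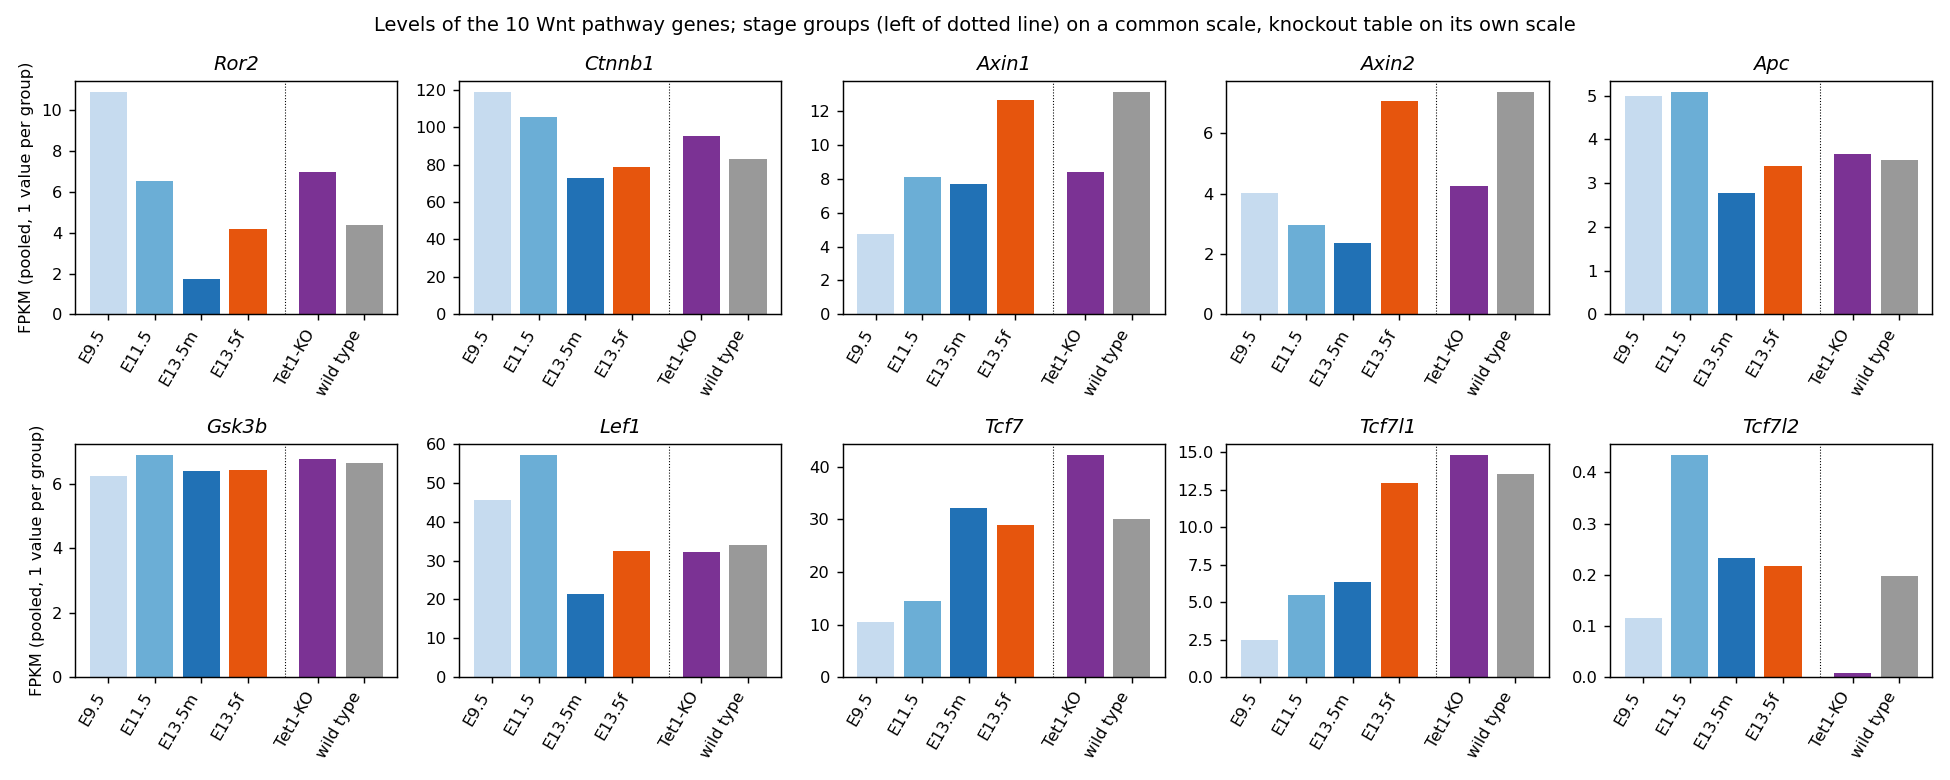
Level of each of the 10 components in FPKM, 1 bar per pooled group, with E9.5, E11.5, E13.5m and E13.5f on the common scale at the left and Tet1-KO beside wild type at the right of each panel. Ctnnb1 and Lef1 have the highest levels at E9.5 and E11.5, Tcf7 is higher than Lef1 in E13.5m and Tet1-KO, and Tcf7l2 stays under 0.5 FPKM; the bars carry no error because the tables hold no value per library.

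Ctnnb1, whose protein also links cadherins to the cytoskeleton at the cell membrane, was the most abundant component in every group. Its level was 119, 105, 72.9 and 78.8 FPKM at E9.5, E11.5, E13.5m and E13.5f on the common scale, and 95.4 FPKM in Tet1-KO cells and 82.9 FPKM in wild-type cells. The later stages held the lower levels, but no step passed the test. The log2 ratio was -0.17 ± 0.39 at E11.5 over E9.5, -0.53 ± 0.33 at E13.5m over E11.5 and -0.42 ± 0.35 at E13.5f over E11.5 (SE; q 0.861, 0.420 and 0.467 in the authors' deposited tables, Cuffdiff). In Tet1-KO over wild-type cells it was 0.20 ± 0.30, with an interval of -0.39 to 0.79.

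Gsk3b, the kinase that marks beta-catenin for degradation, had the narrowest range of the 10. It stood at 6.24, 6.89, 6.39 and 6.41 FPKM at E9.5, E11.5, E13.5m and E13.5f, a 1.10-fold spread from lowest to highest, and at 6.76 FPKM in Tet1-KO cells and 6.65 FPKM in wild-type cells. The intervals of its log2 ratios were -0.86 to 1.14 at E11.5 over E9.5, -1.05 to 0.84 at E13.5m over E11.5, -1.03 to 0.82 at E13.5f over E11.5 and -0.69 to 0.74 in Tet1-KO over wild-type cells. Apc, the large scaffold that helps hold beta-catenin in the complex, stood at 4.99, 5.08, 2.78 and 3.40 FPKM over the same 4 columns, and at 3.68 FPKM in Tet1-KO cells and 3.53 FPKM in wild-type cells. Its lowest log2 ratio was -0.87 ± 0.52 at E13.5m over E11.5 (SE; q 0.385 in the authors' deposited table, Cuffdiff).

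Axin1 and Axin2 are the alternative scaffolds of the complex; Axin1 is broadly made, and Axin2 is itself a direct target of beta-catenin that feeds back on the signal. Axin1 was above Axin2 in all 6 groups. It stood at 4.74, 8.13, 7.70 and 12.6 FPKM at E9.5, E11.5, E13.5m and E13.5f, with a log2 ratio of 0.78 ± 0.53 at E11.5 over E9.5 and no completed test for the E13.5 steps. Axin2 stood at 4.02, 2.95, 2.35 and 7.07 FPKM over the same columns, so that its highest and lowest stage levels were the female-named and the male column of E13.5. Its log2 ratio was 1.26 ± 0.58 at E13.5f over E11.5, with an interval of 0.12 to 2.40, an unadjusted p of 0.0296 and a q of 0.140 in the authors' deposited table (Cuffdiff). At E13.5m over E11.5 it was -0.32 ± 0.68 (q 0.879 in the authors' deposited table, Cuffdiff). In the knockout table both scaffolds were on the lower side: Axin1 had 8.38 FPKM in Tet1-KO cells and 13.1 FPKM in wild-type cells, and Axin2 had 4.26 FPKM in Tet1-KO cells and 7.37 FPKM in wild-type cells. The log2 ratios were -0.65 ± 0.36 for Axin1 and -0.79 ± 0.47 for Axin2 (SE; FDR 0.274 and 0.313 in the authors' deposited table, Cuffdiff), and the median log2 ratio of that table over all tested genes was -0.39.

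Among the DNA-binding partners of beta-catenin, Lef1 and Tcf7 were the abundant ones. Lef1, on chromosome 3 at 130813388-130926249 (mm9), stood at 45.7, 57.3, 21.5 and 32.5 FPKM at E9.5, E11.5, E13.5m and E13.5f. Tcf7, which encodes TCF1, on chromosome 11 at 52066105-52095752 (mm9), stood at 10.6, 14.5, 32.2 and 29.0 FPKM over the same columns. Lef1 was thus lower, and Tcf7 higher, in both E13.5 columns than at E11.5.

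For Lef1 the log2 ratio at E13.5m over E11.5 was -1.42 ± 0.47, from 22.0 FPKM in E13.5m against 58.7 FPKM in E11.5 on the scale of that table. Its interval was -2.34 to -0.49, its unadjusted p 0.00263 and its q 0.0529 in the authors' deposited table (Cuffdiff), just outside the threshold. The q was 0.0460 when only genes with 1 FPKM or more in either group entered the adjustment, and 0.0453 when ratios were taken relative to the table's median (over genes with 1 FPKM or more in both groups), so the call on Lef1 depends on these settings. At E13.5f over E11.5 the Lef1 log2 ratio was -0.82 ± 0.43, with an interval of -1.66 to 0.03 (q 0.209 in the authors' deposited table, Cuffdiff). For Tcf7 the log2 ratio was 1.15 ± 0.50 at E13.5m over E11.5 and 0.998 ± 0.488 at E13.5f over E11.5 (unadjusted p 0.0201 and 0.0408, q 0.181 and 0.169 in the authors' deposited tables, Cuffdiff). At E11.5 over E9.5 both log2 ratios were smaller than their SE, at 0.33 ± 0.46 for Lef1 and 0.46 ± 0.59 for Tcf7.

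Tcf7l1, known in mouse embryonic stem cells chiefly as a repressor of Wnt targets, stood at 2.50, 5.47, 6.33 and 13.0 FPKM at E9.5, E11.5, E13.5m and E13.5f, a 5.19-fold spread. Its log2 ratio at E11.5 over E9.5 was 1.13 ± 0.51, with an interval of 0.13 to 2.13, an unadjusted p of 0.0275 and a q of 0.188 in the authors' deposited table (Cuffdiff). The E13.5 steps had no completed test. Tcf7l2, which encodes TCF4, was the least abundant component in every group, at 0.115, 0.434, 0.232 and 0.217 FPKM over the 4 stage columns. It had 0.00805 FPKM in Tet1-KO cells and 0.198 FPKM in wild-type cells, where the authors' deposited table gives an unadjusted p of 0.0122 and FDR 0.108 (Cuffdiff); at levels this low the fitted ratio of -4.62 ± 1.84 has an interval of -8.24 to -1.01.

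As shares of the summed TCF/LEF level, Lef1 made up 77.6%, 73.7%, 35.6% and 43.5% at E9.5, E11.5, E13.5m and E13.5f, while Tcf7 made up 17.9%, 18.7%, 53.5% and 38.8%. The share of Tcf7l1 was 4.25%, 7.04%, 10.5% and 17.4%. The summed level itself was 58.9, 77.7, 60.2 and 74.7 FPKM over these columns. Lef1 was 4.33 and 3.95 times Tcf7 at E9.5 and E11.5, and 0.666 and 1.12 times Tcf7 at E13.5m and E13.5f. In the knockout table the sum was 89.2 FPKM in Tet1-KO cells and 77.8 FPKM in wild-type cells, and the ratio of Lef1 to Tcf7 was 0.759 in Tet1-KO cells and 1.13 in wild-type cells. These shares carry no test, since each rests on pooled values and the factors' errors are not given jointly.

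**Figure D2:**
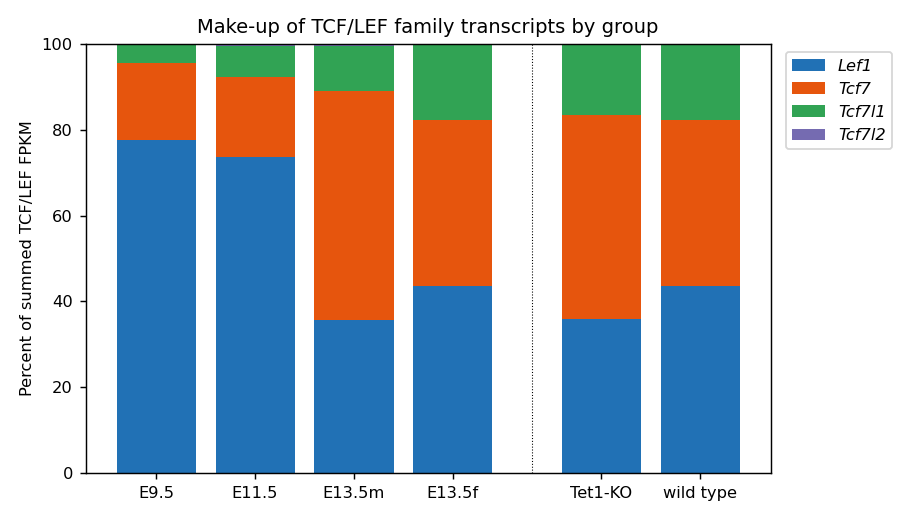
Share of each TCF/LEF factor in their summed FPKM, in percent, stacked for the 4 stage columns in order of age and for Tet1-KO and wild type. Lef1 takes 35.6% in E13.5m, against 77.6% at E9.5, while Tcf7 takes 53.5% in E13.5m, against 17.9% at E9.5; no error is drawn because each group has 1 pooled value.

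None of the TCF/LEF factors was called in Tet1-KO cells. Lef1 had 32.1 FPKM in Tet1-KO cells and 34.0 FPKM in wild-type cells, and Tcf7l1 had 14.8 FPKM in Tet1-KO cells and 13.5 FPKM in wild-type cells. Tcf7 had 42.3 FPKM in Tet1-KO cells and 30.1 FPKM in wild-type cells, a log2 ratio of 0.49 ± 0.35 (SE; FDR 0.405 in the authors' deposited table, Cuffdiff). The sign for Lef1, -0.08 ± 0.34 as deposited, turns to 0.30 relative to the table's median.

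Ror2, on chromosome 13 at 53204685-53381478 (mm9), had the widest stage range of the 10. It stood at 10.9, 6.56, 1.72 and 4.20 FPKM at E9.5, E11.5, E13.5m and E13.5f, a 6.35-fold spread with the male E13.5 column lowest. Its log2 ratio was -0.73 ± 0.55 at E11.5 over E9.5, -1.93 ± 0.70 at E13.5m over E11.5 and -0.64 ± 0.55 at E13.5f over E11.5. The E13.5m step had an interval of -3.30 to -0.57 and an unadjusted p of 0.00541, with a q of 0.0832 in the authors' deposited table (Cuffdiff). Ror2 had 6.99 FPKM in Tet1-KO cells and 4.37 FPKM in wild-type cells, a log2 ratio of 0.68 ± 0.47 (SE; FDR 0.387 in the authors' deposited table, Cuffdiff).

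Over the components with a completed test, 7 log2 ratios were positive and 3 negative at E11.5 over E9.5, with a median of 0.23 beside 0.31 for all genes tested. At E13.5f over E11.5 there were 2 positive and 6 negative, with a median of -0.50 beside 0.26; with Axin1 and Tcf7l1, whose tests were not completed, there were 4 positive and 6 negative and the median was -0.26. At E13.5m over E11.5 there was 1 positive, Tcf7, and 7 negative, with a median of -0.70 beside 0.05; with the same pair added there were 2 positive and 8 negative and the median was -0.43. In Tet1-KO over wild-type cells there were 6 positive and 4 negative, with a median of 0.04 beside -0.39. The 2 E13.5 comparisons share their E11.5 libraries.

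No table set E13.5m against E13.5f, so the difference of their log2 ratios to E11.5 was tested, with both SEs, over 10677 genes. Of these, 0.169% passed after Benjamini-Hochberg adjustment and 3.76% had an unadjusted p under 0.05; of the 8 components with both ratios, 0 passed and 0 had such a p. Axin2 lay farthest apart, its common-scale level being 2.35 FPKM in E13.5m, against 7.07 FPKM in E13.5f, with a log2 difference of -1.59 ± 0.89 and an interval of -3.33 to 0.16. Ror2 followed, with 1.72 FPKM in E13.5m against 4.20 FPKM in E13.5f and a log2 difference of -1.29 ± 0.89. Gsk3b differed by -0.01, with an interval of -1.33 to 1.32. The error of the shared E11.5 column is counted in both ratios, which widens these intervals. The E13.5f column is tied to no library and follows the wild-type column of the knockout set. A difference of sex therefore cannot be told apart here from one of library set.

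The genes around the components were followed through 10 lists of other pathway genes, 127 of which were found. At E11.5 over E9.5, 1 of 92 tested rose (1.09%) and 5 fell (5.43%), where 3.71% of all genes tested rose and 1.92% fell. The ligand Wnt5a, which acts through Ror2, fell to 1.78 FPKM at E11.5, against 16.1 FPKM at E9.5, a log2 ratio of -3.17 ± 0.64 (SE; q 8.68e-05 in the authors' deposited table, Cuffdiff). Wls, the carrier that brings Wnt proteins to the cell surface, had 0.393 FPKM at E11.5 and 4.60 FPKM at E9.5, a log2 ratio of -3.55 ± 0.92 (q 0.005 in the authors' deposited table, Cuffdiff). The receptor Fzd9 had 5.86 FPKM at E11.5 and 41.8 FPKM at E9.5, also a fall. The target genes Cdx2, a caudal homeobox gene of posterior embryonic tissue, and Msx1, a homeobox gene that also answers to BMP, fell with log2 ratios of -2.22 ± 0.64 and -1.93 ± 0.49. The riser was Apcdd1, a membrane inhibitor of Wnt, at 1.84 FPKM in E11.5 and 0.0561 FPKM in E9.5. The drop in the summed blood markers, and the epithelial marker sum of 29.2 FPKM at E11.5 and 61.6 FPKM at E9.5, accompany these falls. The endothelial markers Tek and Esam rose at E11.5. Pecam1, the most abundant of that list, was not called, at 61.5 FPKM in E11.5 and 52.5 FPKM in E9.5 on the common scale. The part of these markers in the calls was not tested.

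At E13.5 nearly all calls among the list genes were higher than at E11.5. At E13.5f over E11.5, 17 of 90 tested list genes rose (18.9%) and 1 fell (1.11%), where 9.34% of all genes tested rose and 2.68% fell. At E13.5m over E11.5, 12 of 86 rose (14.0%) and 0 fell, where 2.94% rose and 1.94% fell over the table. Neither difference between list and table was tested. Markers of other cell types moved in the same comparisons. The 9 epithelial and endodermal markers summed to 79.0 FPKM in E13.5f and 29.2 FPKM in E11.5 on the common scale; Krt18 rose to 68.6 FPKM in E13.5f, against 20.1 FPKM in E11.5, and Pax8 fell in both E13.5 columns. Krt19 and the soma markers Rspo1 and Amh rose in E13.5m. Both endothelial markers tested, Tek and Esam, fell in E13.5f, and Esam also fell in E13.5m. The 6 endothelial markers summed to 72.1, 40.3 and 68.8 FPKM in E11.5, E13.5m and E13.5f on the common scale. Most of this was Pecam1, at 61.5, 39.5 and 67.7 FPKM, which was called in neither. The part of these markers in the calls was not tested.

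Of 16 target genes tested in E13.5f, 7 rose, with a median log2 ratio of 1.72. Over all genes tested there, 9.34% rose and the median was 0.26. In E13.5m 5 of 14 target genes tested rose, with a median of -0.10, beside 2.94% and 0.05 for all genes tested. The lists overlap: Nkd1 is counted again among the Dishevelled adaptors and Notum among the secreted inhibitors. Sp5, a zinc-finger factor and direct beta-catenin target, had 20.3 FPKM in E13.5f and 0.520 FPKM in E11.5, a log2 ratio of 5.29 ± 0.87 (SE; q 3.02e-07 in the authors' deposited table, Cuffdiff). In E13.5m it had 23.6 FPKM and in E11.5 0.533 FPKM on the scale of that table, a log2 ratio of 5.47 ± 0.87 (q 1.53e-07 in the authors' deposited table, Cuffdiff). Ccnd1, the G1 cyclin D1, rose by log2 ratios of 4.65 ± 0.58 in E13.5f and 2.69 ± 0.61 in E13.5m, with 39.4 FPKM in E13.5f against 1.56 FPKM in E11.5. Ascl2, a helix-loop-helix factor of intestinal stem cells and trophoblast, and Nkd1, a feedback inhibitor that binds Dishevelled, also rose in both; the Nkd1 log2 ratio was 3.30 ± 0.59 in E13.5f and 2.04 ± 0.64 in E13.5m.

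Other target genes were called in 1 of these tables. Msx1 had 208 FPKM in E13.5f and 21.2 FPKM in E11.5, a log2 ratio of 3.29 ± 0.46 (SE; q 3.09e-10 in the authors' deposited table, Cuffdiff), while its level in E13.5m was 36.4 FPKM against 21.7 FPKM in E11.5, with no completed test. Notum, an enzyme that strips the lipid from Wnt proteins, and Id2, an inhibitor of helix-loop-helix factors that BMP also induces, rose in E13.5f with log2 ratios of 1.78 ± 0.53 and 1.72 ± 0.48. T, which encodes the mesodermal factor Brachyury, rose in E13.5m to 4.91 FPKM, against 0.277 FPKM in E11.5. Direct differences of E13.5m over E13.5f were not past the adjusted threshold for any named list gene that could be tested. For Notum the log2 difference was -2.42 ± 0.82, for Id2 -2.16 ± 0.76 and for Ccnd1 -1.96 ± 0.84, while for T it was 3.39 ± 1.69. The target genes Msx1 and Dkk1, like some other list genes, lacked an SE at E13.5m over E11.5, so their difference was not tested.

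**Figure D3:**
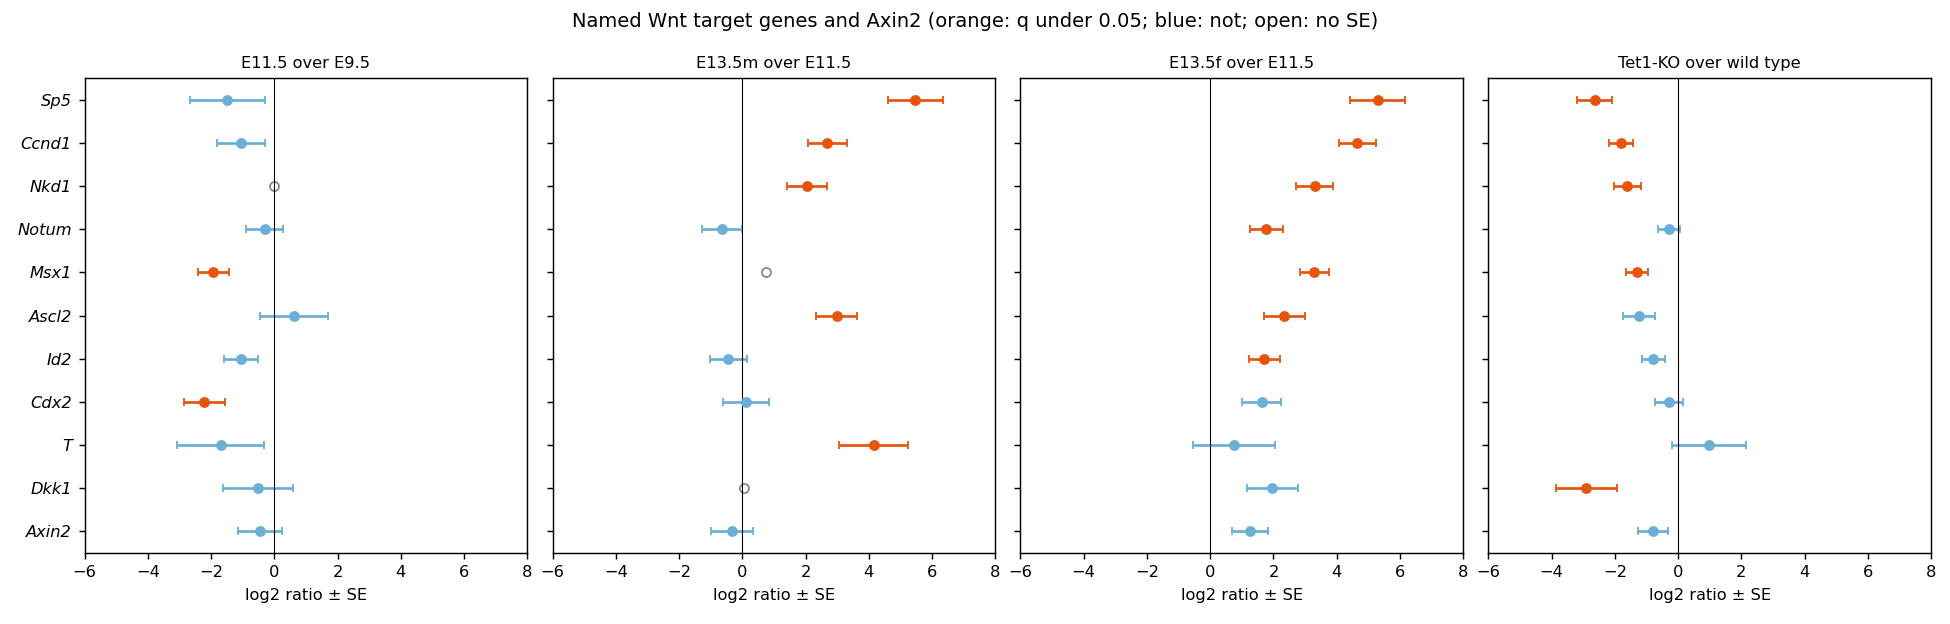
Log2 ratios with SE bars of the named Wnt target genes and of Axin2 in the 4 deposited comparisons. Orange marks a call at q or FDR under 0.05, blue no call, and open circles have no SE. Every listed target drawn was picked because it was called in a deposited comparison. The targets on the list that were called in no table (Cdx1, Myc, Lgr5, Rnf43, Znrf3, Cd44, Nodal, Mitf and Sox17) are not drawn. Sp5, Ccnd1 and Nkd1 are called to the right in both E13.5 panels and to the left in Tet1-KO over wild type. Axin2 (1.26 in E13.5f, -0.32 in E13.5m and -0.79 in Tet1-KO) is called in none.

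Promoter sequences are shown for Sp5, the target with the largest called ratios, and for Axin2, the component that is itself a target, since TCF/LEF factors bind short sites of known letters. The windows run from 250 bases before to 50 bases after a start in the RefSeq table of GRCm38.p6, and capitals mark matches, on either strand, to CTTTG followed by 2 bases that are each A or T. The Sp5 window is chr2:70474673-70474972 (plus strand) and the Axin2 window chr11:108920099-108920398 (plus strand).
Sp5: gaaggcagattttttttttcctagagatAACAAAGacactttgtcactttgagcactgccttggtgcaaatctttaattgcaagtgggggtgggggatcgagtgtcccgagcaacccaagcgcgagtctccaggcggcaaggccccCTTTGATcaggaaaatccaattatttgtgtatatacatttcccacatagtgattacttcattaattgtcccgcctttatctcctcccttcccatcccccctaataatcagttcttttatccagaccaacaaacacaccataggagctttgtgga
Axin2: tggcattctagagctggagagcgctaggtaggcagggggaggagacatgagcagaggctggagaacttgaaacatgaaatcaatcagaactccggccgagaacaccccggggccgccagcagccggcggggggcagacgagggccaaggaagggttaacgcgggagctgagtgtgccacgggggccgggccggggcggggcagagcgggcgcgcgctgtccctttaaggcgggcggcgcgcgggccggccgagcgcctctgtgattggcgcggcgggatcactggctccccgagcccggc
The Sp5 window holds AACAAAG from position -222 and CTTTGAT from position -104 relative to the start, and the Axin2 window holds no match. A match is in 16.9% of 32851 such windows and 2 or more are in 1.94%. Windows were found for 8 components, 14 in all, and 2 held a match, TACAAAG in a window of Lef1 and CTTTGTT in a window of Tcf7l2; Axin1 and Apc were not matched. These are descriptions of letters in the window, not of binding.

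On the list of secreted inhibitors and their receptors, 4 of 10 tested rose in E13.5f and 3 of 9 in E13.5m, beside 9.34% and 2.94% of all genes tested; 0 fell and the others did not pass. Sfrp2, which binds Wnt proteins outside the cell, had 53.0 FPKM in E13.5f and 7.16 FPKM in E11.5, a log2 ratio of 2.89 ± 0.51 (SE; q 3.15e-06 in the authors' deposited table, Cuffdiff). In E13.5m it had 104 FPKM and in E11.5 7.33 FPKM, a log2 ratio of 3.82 ± 0.51 (q 8.96e-11 in the authors' deposited table, Cuffdiff). Dkk3, a member of the Dickkopf family, rose in both from E11.5 levels under 0.01 FPKM. Kremen2, a receptor for Dickkopf proteins, rose in E13.5m to 7.54 FPKM, against 0.336 FPKM in E11.5. Sfrp5 was called in E13.5f at 0.771 FPKM, against 0.0362 FPKM in E11.5.

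Among ligands, 1 of 5 tested rose in E13.5m and 0 of 7 in E13.5f, and among Frizzled and other receptors 1 of 10 rose in E13.5m and 1 of 12 in E13.5f. Over all genes tested 2.94% rose in E13.5m and 9.34% in E13.5f, and with 1 call or none per list nothing is read from these shares. Wnt3, a canonical ligand, had 20.9 FPKM in E13.5m and 0.950 FPKM in E11.5, a log2 ratio of 4.46 ± 0.70 (SE; q 1.02e-07 in the authors' deposited table, Cuffdiff). The common-scale level of Wnt3 was 20.4 FPKM in E13.5m, against 2.59 FPKM in E13.5f, a log2 difference of 2.98 ± 1.03 that did not pass after Benjamini-Hochberg adjustment. The receptor Fzd2 rose in both E13.5 columns, with log2 ratios of 3.40 ± 0.80 in E13.5f and 3.01 ± 0.82 in E13.5m. Rspo1, an R-spondin that strengthens Wnt signals and also a gonad soma marker, rose in E13.5m to 7.38 FPKM, against 0.471 FPKM in E11.5. Rspo4, another R-spondin, rose in E13.5f to 1.70 FPKM, against 0.145 FPKM in E11.5. Lgr4, an R-spondin receptor, fell in E13.5f to 3.09 FPKM, against 10.8 FPKM in E11.5. The gonad soma marker sum was 21.8 FPKM in E13.5m and 3.58 FPKM in E11.5 on the common scale, and 2 of its 9 tested markers rose there.

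Among genes that act inside the cell, Dishevelled and its membrane adaptors rose in 3 of 8 tested in E13.5f and 1 of 8 in E13.5m, and destruction complex partners in 1 of 10 in E13.5f and 1 of 11 in E13.5m. Nuclear and membrane partners of beta-catenin rose in 1 of 15 in E13.5f and 0 of 16 in E13.5m, and planar polarity genes in 1 of 9 in E13.5f and 0 of 10 in E13.5m. None of these genes fell. Over all genes tested 9.34% rose in E13.5f and 2.94% in E13.5m. Destruction complex partners, partners of beta-catenin and planar polarity genes had 1 call or none per comparison, so nothing is read from their shares. Ctnnbip1, whose small protein blocks beta-catenin from TCF/LEF factors, had 48.0 FPKM in E13.5f and 11.0 FPKM in E11.5, a log2 ratio of 2.13 ± 0.47 (SE; q 0.000293 in the authors' deposited table, Cuffdiff). Nkd2, a relative of Nkd1, rose in E13.5f to 4.49 FPKM, against 0.427 FPKM in E11.5, and Vangl2, a planar polarity protein, to 13.7 FPKM, against 3.15 FPKM in E11.5. Btrc, the ubiquitin ligase subunit that recognises phosphorylated beta-catenin, rose in E13.5m to 27.4 FPKM, against 11.6 FPKM in E11.5, a log2 ratio of 1.23 ± 0.32. Dixdc1, a Dishevelled-like adaptor, and Amer1, a membrane partner of Apc, were also called higher in E13.5f. Csnk1a1, the kinase that primes beta-catenin for Gsk3b and the most abundant of the destruction complex partners at E11.5, was called in neither E13.5 table.

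In Tet1-KO against wild-type cells, 1 of 112 tested list genes rose (0.893%) and 8 fell (7.14%), where 0.677% of all genes tested rose and 5.48% fell. Among target genes 5 of 17 tested fell and 0 rose, with a median log2 ratio of -0.97 beside -0.39 for all genes tested. Sp5 had 3.40 FPKM in Tet1-KO cells and 21.2 FPKM in wild-type cells, a log2 ratio of -2.64 ± 0.56 (SE; FDR 0.000315 in the authors' deposited table, Cuffdiff). Ccnd1 had 11.7 FPKM in Tet1-KO cells and 41.2 FPKM in wild-type cells, a log2 ratio of -1.82 ± 0.38 (FDR 0.000215 in the authors' deposited table, Cuffdiff). Both rose at E13.5f over E11.5, as did Sfrp2, Ctnnbip1, Msx1 and Nkd1, which are among the falls described next. The E13.5f column of that comparison follows the wild-type column here, so these rises and falls are not independent. Of the other falls, Btrc had no completed test at E13.5f over E11.5 and Dkk1 was not called there.

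Sfrp2 had 17.7 FPKM in Tet1-KO cells and 55.2 FPKM in wild-type cells, a log2 ratio of -1.64 ± 0.38 (SE; FDR 0.00142 in the authors' deposited table, Cuffdiff). Ctnnbip1 had 16.9 FPKM in Tet1-KO cells and 50.3 FPKM in wild-type cells, a log2 ratio of -1.57 ± 0.36 (FDR 0.00107 in the authors' deposited table, Cuffdiff). The remaining falls were Msx1, with 88.1 FPKM in Tet1-KO cells and 217 FPKM in wild-type cells, Nkd1, Btrc, and Dkk1, which encodes a secreted blocker of Lrp receptors and had 0.504 FPKM in Tet1-KO cells and 3.76 FPKM in wild-type cells. Vps35, a retromer subunit that recycles Wls, was the riser, with 104 FPKM in Tet1-KO cells and 55.1 FPKM in wild-type cells.

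Because the knockout table lay low as a whole, with a median log2 ratio of -0.38 over genes with 1 FPKM or more in both groups, ratios were also taken relative to that median. Sp5, Ccnd1, Sfrp2 and Ctnnbip1 still fell, Msx1, Nkd1, Btrc and Dkk1 no longer passed, and the receptors Fzd9 and Fzd10 joined Vps35 as higher, so that 4 were lower and 3 higher. No component was called in the knockout table on either scale. The gonad soma markers summed higher in Tet1-KO than in wild-type cells, as given above. Their median log2 ratio, over the 9 with a ratio, was 1.57, beside -0.39 for all genes tested. Dhh, left out of this median, had 0 FPKM in Tet1-KO cells and 0.641 FPKM in wild-type cells. Of the 10 soma markers 0 were called, where 0.677% of all genes tested rose. The germ cell markers summed lower in Tet1-KO cells, but their median level was 204 FPKM there and 202 FPKM in wild-type cells. The germ cell marker Dazl fell to 671 FPKM in Tet1-KO cells, against 1491 FPKM in wild-type cells. Tfap2c rose to 226 FPKM in Tet1-KO cells, against 122 FPKM in wild-type cells. The endothelial markers summed to 99.3 FPKM in Tet1-KO cells and 72.4 FPKM in wild-type cells, with 0 of 5 called. Of 4 mesenchyme markers tested, 2 fell: Pdgfra had 0.00478 FPKM in Tet1-KO cells and 0.200 FPKM in wild-type cells, and Pdgfrb had 0.00584 FPKM in Tet1-KO cells and 0.311 FPKM in wild-type cells. The part of these markers in the falls of list genes was not tested.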

How the data were processed

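RNA was amplified to cDNA (2 to 70 ng), sonicated and sequenced on Illumina HiSeq machines, per the labels' protocols. TopHat 1.3.1, Bowtie, Cufflinks and Cuffdiff (1.2.1 and 1.0.3) and mm9 are named in the submitters' processing notes. The authors deposited 4 Cuffdiff tables holding, per gene, 1 pooled FPKM value per group and the p-value and q-value or FDR of their test; the stage tables also hold its test statistic, a score per the file headers. Of the deposited FDR values of the knockout comparison, 2182 exceed 1 (up to 1.06). No depth is given, and 1 column, E13.5f, is tied to no library.

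With Python 3.11.15, pandas 2.3.3 and scipy 1.17.1, log2 ratios were computed from the FPKM values, and their SE as the ratio divided by the statistic or by the normal deviate of p. Stage columns were scaled by 0.870 (E9.5 table) and 0.976 (E13.5m table) through the shared E11.5 column. Simulated log2 ratios were used to try the test relative to the median and that of E13.5m over E13.5f, not the scaling. The changes planted there were larger than every component ratio but that of Tcf7l2 in Tet1-KO cells. Recovery of smaller changes was therefore not tried. The 10 members and all gene lists were chosen with earlier results of these data known. Named list genes are those called, at most 4 per list and table by size of change, plus the list's most abundant gene at E11.5; Fzd10 was named after its values were seen. Other thresholds, filters and scalings were tried. No reads or per-library levels were analysed here.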

Additional observations from a re-analysis of the deposited data

How the results depend on the processing

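No paired analysis was possible because the tables hold 1 pooled value per group, and leaving out single libraries was not run for the same reason. The count of components called was 0 under every alternative except at E13.5m over E11.5, where it was 1 (Lef1) both with 1 FPKM or more in either group and relative to the table's median. A threshold of 0.01 left 0 list genes higher at E11.5 over E9.5, 0 lower at E13.5f over E11.5 and 0 higher in Tet1-KO over wild type, where a minimum log2 ratio of 1 also left 0. Relative to the table's median, 3 list genes were higher and 4 lower in Tet1-KO; the adjusted p was then 0.130 for Btrc, 0.132 for Dkk1, 0.122 for Msx1 and 0.0745 for Nkd1, and at E13.5f over E11.5 it was 0.0862 for Amer1, 0.0518 for Rspo4 and 0.0629 for Sfrp5. Signs turned on that scale for Apc (-0.29), Gsk3b (-0.18) and Lgr4 (-0.0724) at E11.5 over E9.5, Wnt5b (-0.00109) at E13.5f over E11.5, Csnk1a1 (-0.0101, which has no SE) at E13.5m over E11.5, and Lef1 (0.30), Ryk (0.30), Notum (0.0893), Cdx2 (0.0826) and Rhoa (0.0130) in Tet1-KO over wild type; none of these was called. The 36 tested component ratios kept their sign with pseudocounts of 1 and 0.1 FPKM. The cause was not tested beyond the change of scale or threshold itself. The pooled tables, the low-input amplification and the unknown depth limit what can be seen; SEs of the component log2 ratios ran from 0.30 to 1.84.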

Other observations

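Some of the most abundant pathway genes lay outside the calls. Csnk1a1, which primes beta-catenin for Gsk3b, stood at 338.5, 330, 332 and 289 FPKM at E9.5, E11.5, E13.5m and E13.5f on the common scale, and at 215 FPKM in Tet1-KO cells and 304 FPKM in wild-type cells. Rhoa, a small GTPase of the planar polarity arm, stood between 285 and 416 FPKM over the same stages. Vps26a, a retromer subunit, had 242 FPKM at E11.5 and 102 FPKM at E9.5, a log2 ratio of 1.25 ± 0.43 (SE; q 0.0610 in the authors' deposited table, Cuffdiff). Tle5, a short member of the Groucho family, had 170 FPKM at E11.5 and 60.9 FPKM at E9.5, a log2 ratio of 1.48 ± 0.52 (q 0.0629 in the authors' deposited table, Cuffdiff). At E13.5m Tle5 had 63.6 FPKM, against 152 FPKM at E11.5, with a q of 0.108 in the authors' deposited table (Cuffdiff).

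Dvl2, a Dishevelled that carries the signal from Frizzled, had 45.5 FPKM in E13.5f and 81.6 FPKM in E11.5 (q 0.166 in the authors' deposited table, Cuffdiff). In E13.5m it had 79.5 FPKM, against 83.6 FPKM in E11.5. Wnt5b, the most abundant ligand at E11.5, stood at 4.31, 3.67, 1.44 and 4.18 FPKM over the 4 stage columns and was called in no table. The receptor Ryk stood at 29.3, 24.6, 9.83 and 16.9 FPKM, with no completed test for either E13.5 step.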
